A study of Mus musculus with 6 samples.

Results

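Described here are 44 genes of fatty acid synthesis, desaturation and lipid storage, from the citrate carrier that supplies cytosolic acetyl-CoA to the proteins that coat lipid droplets. They were taken by name from the 55450 genes of GENCODE M21 in the count files, matched by versioned Ensembl identifier, and the list was drawn up with earlier results of these data known. Of the 44 members, 41 had enough reads to be tested and 3 did not.

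In the liver, carbon from glucose leaves mitochondria as citrate, is cleaved to acetyl-CoA, carboxylated to malonyl-CoA and built into palmitate by fatty acid synthase. Elongases and desaturases then lengthen the chain and place double bonds in it, and acyltransferases join fatty acids to glycerol to make triacylglycerol, which is stored in droplets coated by perilipins. The transcription factors SREBP-1c (from Srebf1) and ChREBP (from Mlxipl) are known for driving these genes in response to insulin and to glucose. The remnant liver is also known to fill transiently with droplets during the first days of regeneration.

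The data were 6 bulk RNA-Seq libraries of primary hepatocytes from C57BL/6 mice on a normal diet. In 3 libraries the hepatocytes came from undamaged liver (0 h), and in 3 they came from liver 48 h after partial hepatectomy (PHx), an operation that cuts away most liver lobes. The labels give an age of 10 to 12 weeks, the study's methods give male C57BL/6J mice of a slightly younger age, and each library came from a separate hepatocyte preparation. No genetic change, drug or sham operation was part of either group, so surgery, anesthesia and the time after them cannot be told apart from loss of tissue. Hepatocytes were obtained by collagenase perfusion, which leaves some other liver cells in the preparation. The labels do not say when the mice last ate.

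Gene counts per library ranged from 31419443 to 36346220, at which 3 counts equal 0.0839 to 0.102 CPM (counts scaled to TMM-normalized library size), a floor that covers counting error only. The 4 proliferation markers Mki67, Top2a, Cdk1 and Ccnb1 together stood at 4.05 to 7.54 CPM at 0 h and 369 to 496 CPM at 48 h, as the time labels imply. The 8 hepatocyte markers summed to 77988 to 94303 CPM at 0 h and 46974 to 56663 CPM at 48 h, a sum made up mostly of Alb (63550 ± 8914 and 35070 ± 4029 CPM, SD, n = 3). Alb, Ttr, Apoa1 and Serpina1c were lower by the test, while Apoc3, Cps1, Trf and Hnf4a did not pass (log2 fold changes -0.23, 0.01, -0.01 and 0.23), and Hnf4a was higher in every library at 48 h than in any at 0 h. Exon bases overlap another gene in Trf (63.5%, same strand) and Serpina1c (31.5%, other strand), so the counts of these markers are uncertain. Kupffer cell markers (8 genes) summed to 59.3 to 90.5 CPM at 0 h and 92.9 to 115 CPM at 48 h, although only Marco and Cd5l rose by the test. The sums of endothelial markers (8 genes, 7 of them lower) were 194 to 302 and 140 to 159 CPM, and those of stellate cell markers (7 genes, of which Reln, Ecm1 and Colec11 were lower) were 110 to 170 and 64.6 to 87.2 CPM. Of the adipocyte markers, Lep was at 0 in all libraries, and no library held more than 4 counts of Adipoq, Plin1, Retn or Cfd. The sixth, the hormone-sensitive lipase Lipe, which other cells also express, held 332 to 505 counts per library and nearly all of the list's sum of 10.8 to 15.3 CPM at 0 h and 11.4 to 13.2 CPM at 48 h. In bulk libraries, fewer cells of a type and less RNA per cell cannot be told apart, and the part of these other cell types in the results was not tested.

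Upstream sequence is shown for the 4 members that fell more than 2-fold and whose 250 bases before the annotated start held at least 2 matches to letters known to be bound by SREBP, by NF-Y or by E-box factors such as USF. Motifs were read on both strands as the SREBP element TCACNCCAC, the NF-Y box CCAAT and the E-box CACGTG, which do not overlap each other in these 4 windows. The sequences are from RefSeq on GRCm38.p6 and run 5′ to 3′ on the strand of the gene, with matches in capitals, and ATTGG is CCAAT on the opposite strand. The windows are chr9:77917115-77917364 (plus strand) for Elovl5, chr19:10041298-10041547 (plus) for Fads3, chr5:135089640-135089889 (plus) for Mlxipl and chr7:97417551-97417800 (minus) for Thrsp.
Elovl5: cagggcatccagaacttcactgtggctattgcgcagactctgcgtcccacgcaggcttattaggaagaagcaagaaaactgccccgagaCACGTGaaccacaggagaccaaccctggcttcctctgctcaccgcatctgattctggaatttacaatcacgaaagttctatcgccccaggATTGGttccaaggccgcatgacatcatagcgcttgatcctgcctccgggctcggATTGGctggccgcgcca
Fads3: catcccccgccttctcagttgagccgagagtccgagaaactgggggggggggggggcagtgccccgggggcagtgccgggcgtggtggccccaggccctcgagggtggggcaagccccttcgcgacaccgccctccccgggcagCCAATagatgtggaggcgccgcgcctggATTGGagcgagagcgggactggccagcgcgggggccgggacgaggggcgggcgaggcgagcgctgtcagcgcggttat
Mlxipl: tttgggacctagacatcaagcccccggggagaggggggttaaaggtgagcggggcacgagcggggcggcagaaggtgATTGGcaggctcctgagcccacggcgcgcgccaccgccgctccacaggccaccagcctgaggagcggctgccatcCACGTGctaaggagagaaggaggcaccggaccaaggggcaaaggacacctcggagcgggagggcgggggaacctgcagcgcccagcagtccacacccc
Thrsp: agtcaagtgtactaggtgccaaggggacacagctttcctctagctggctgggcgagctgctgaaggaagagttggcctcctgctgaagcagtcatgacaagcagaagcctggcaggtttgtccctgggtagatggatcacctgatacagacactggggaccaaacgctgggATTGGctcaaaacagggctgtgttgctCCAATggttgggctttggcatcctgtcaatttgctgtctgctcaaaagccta

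In the Elovl5 window, NF-Y boxes began 71 and 17 bases before the start and an E-box 161 bases before it. Fads3 had NF-Y boxes at 106 and 78 bases, Mlxipl an NF-Y box at 173 and an E-box at 98 bases, and Thrsp NF-Y boxes at 79 and 52 bases. The starts are those of RefSeq. In GENCODE, Thrsp starts further upstream, at chr7:97417730, so both of its boxes lie within the GENCODE gene. Among the 49 windows of the 37 members with an entry, 21 (42.9%) held an NF-Y box, against 33.8% of all 32851 windows of this length. An E-box was in 4 member windows (8.16%, against 6.02% of all) and the SREBP element in 1 (2.04%, against 1.05%), the latter a second, internal start of Mlxipl. Among the other members with a drop past 2-fold, Acacb and Acss2 held 1 match each, and Lpin1 and Fitm1 held 0. Of members that did not pass the test described below, Fasn held 3 NF-Y boxes and Slc25a1 an NF-Y box and an E-box, while Acly and Acaca held 0. A match is a run of letters and not a measured binding site, and whether matches bear on the changes was not tested. Scd1, Scd2, Fads1, Dgat1, Dgat2, Fabp4 and Cidea had no entry.

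At 48 h, more members were lower than higher. In a quasi-likelihood test (edgeR) adjusted over 17037 genes by Benjamini and Hochberg's method, 20 of the 41 tested members were lower (48.8%) and 2 were higher (4.88%), while 19 did not pass. Among all genes tested, 19.3% were lower, 21.4% were higher and 40.7% passed in either direction. The median log2 fold change of the members was -0.55, against -0.00325 for all genes, and 34 of 41 values were negative. The 8 hepatocyte markers had a median of -0.50, with 4 lower and 0 higher. In 21 members every library at 48 h lay below every library at 0 h, as it did in 25.0% of all genes, and in 2 members, Fabp2 and Fabp4, the order was the reverse, against 27.8% of all genes. A drop of at least 2-fold passed the test in 10 members (7.94% of all genes) and a rise of that size in 1 (9.69% of all genes). The p-values measure the spread between these 6 preparations.

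**Figure D1:**
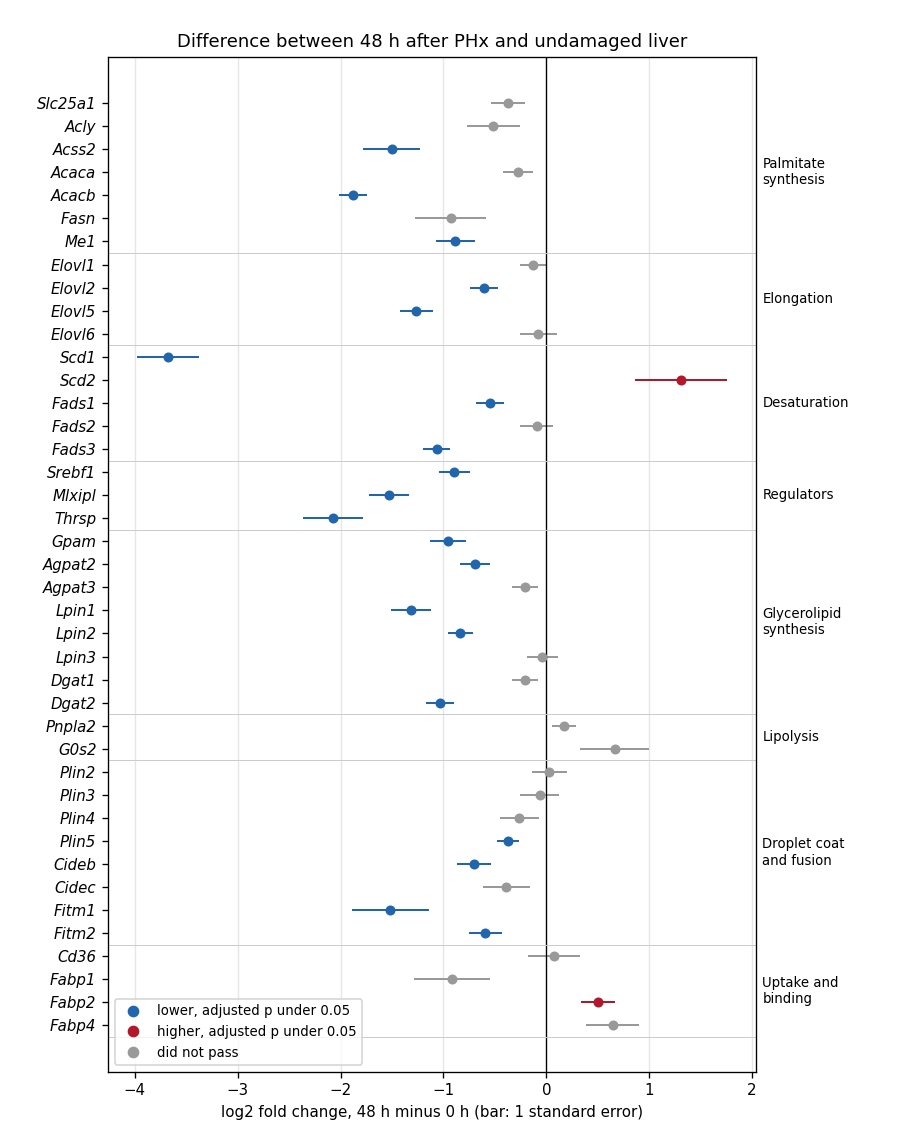
Log2 fold change of the 41 tested members, 48 h minus 0 h, from edgeR, with bars of 1 standard error, ordered by role; blue and red mark members lower and higher at an adjusted p under 0.05. Most points lie left of 0, Scd1 lies farthest left at -3.68, and the lipolysis and uptake genes lie mostly at or right of 0.

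Of the 7 genes for making palmitate and its precursors, 3 fell (42.9%, against 19.3% of all genes) and 4 did not pass. All 7 log2 fold changes were negative. The largest drop was in Acacb (chr5:114146535-114250761), the acetyl-CoA carboxylase of the outer mitochondrial membrane, whose malonyl-CoA is known for restraining entry of fatty acids into mitochondria. Its levels were 271, 264 and 284 CPM at 0 h and 86.1, 73.0 and 63.2 CPM at 48 h. The groups were far apart and each was tight, with a log2 fold change of -1.88 (standard error, SE, 0.136, adjusted p 2.98e-06, edgeR). Acaca, the cytosolic carboxylase that supplies malonyl-CoA for synthesis, had a log2 fold change of -0.27 (adjusted p 0.164, edgeR), and its libraries overlapped.

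Acss2 (chr2:155517948-155585724), which makes acetyl-CoA from acetate, stood at 256, 231 and 333 CPM at 0 h. At 48 h it was at 142, 88.5 and 58.7 CPM. All 3 values lay below those at 0 h, the log2 fold change was -1.50 (SE 0.274, adjusted p 0.00156, edgeR), and 9.12% of its exon bases overlap genes on the other strand. Me1, the malic enzyme that supplies NADPH, fell by 0.88 on the log2 scale (adjusted p 0.00432, edgeR). By contrast, ATP-citrate lyase Acly and the citrate carrier Slc25a1 did not pass (log2 fold changes -0.52 and -0.37).

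Fasn, the synthase itself, missed the threshold. It measured 1353, 872 and 1534 CPM at 0 h and 1089, 447 and 438 CPM at 48 h. Replicate 1 at 48 h lay inside the 0 h range and the other 2 libraries lay at about the same level below it. The log2 fold change was -0.93 (SE 0.343, adjusted p 0.052, edgeR), and without that library it was -1.50 (adjusted p 0.000608). Without replicate 2 of 0 h, the lowest of its group, it was -1.14 (adjusted p 0.0365). Without any 1 of the other 4 libraries it was between -0.70 and -0.88 and did not pass (adjusted p 0.119 to 0.175), so the call for Fasn depends on single libraries, and it passed in 7 of the 15 alternative analyses. Acly and Acaca passed only without 48 h replicate 1 (-0.85 and -0.45, adjusted p 0.0109 and 0.0178), and Slc25a1 only without 0 h replicate 2 (-0.54, adjusted p 0.0104), among the 6 fits that left out a library. In the others these 3 genes ranged from -0.71 to -0.17.

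**Figure D2:**
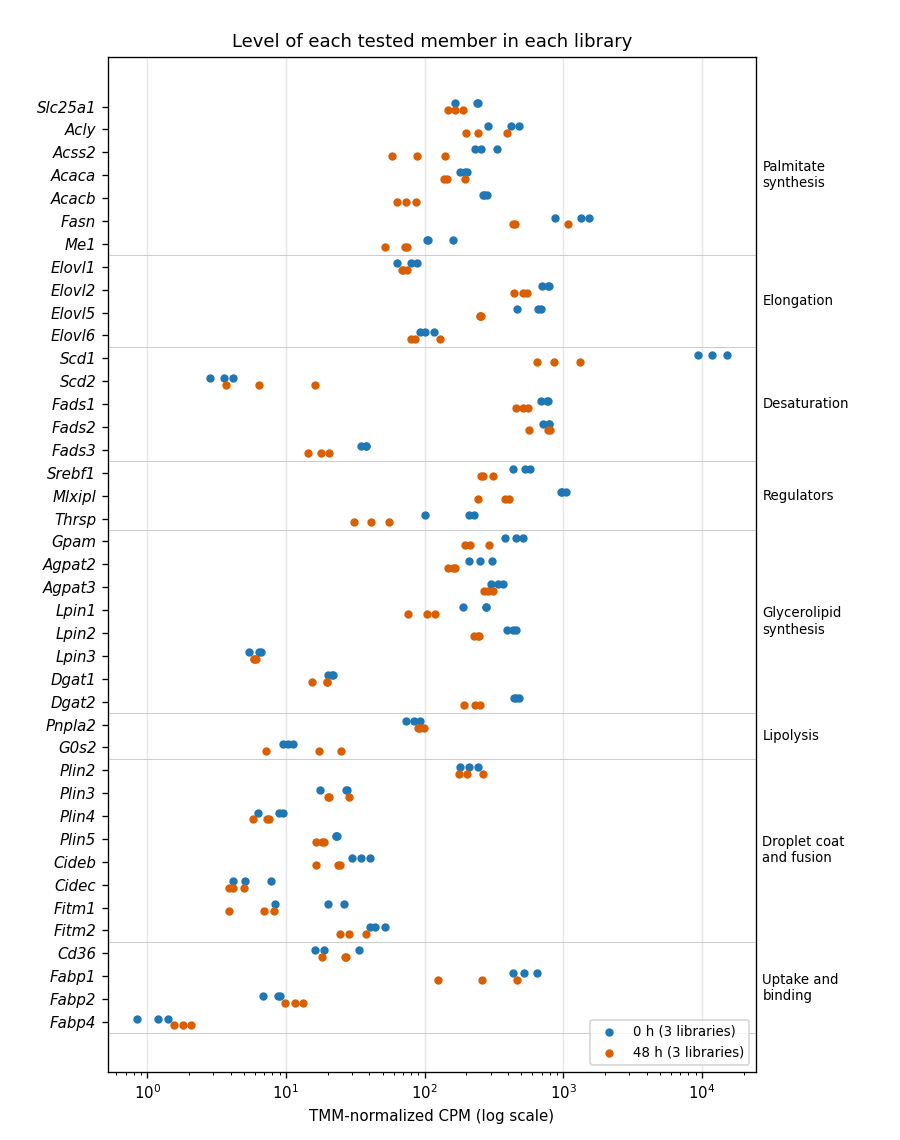
TMM-normalized CPM (log axis) of the 41 tested members in each library, blue for 0 h and orange for 48 h, ordered by role. The Scd1 points of the time points lie 12.8-fold apart on average, while genes such as Fasn, Fabp1, G0s2 and Scd2 spread widely among the 48 h libraries.

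Among the 41 tested members, the largest drop was in a desaturase. Scd1 (ENSMUSG00000037071.3, chr19:44394455-44407879), the liver's main stearoyl-CoA desaturase, makes oleate and palmitoleate. Its levels were 9440, 11768 and 15061 CPM at 0 h and 1331, 857 and 651 CPM at 48 h. The groups did not overlap, and the level was 12.8-fold lower, a log2 fold change of -3.68 (SE 0.300, adjusted p 7.43e-06, edgeR). At 0 h, Scd1 had the highest level per kilobase of exon among the members, at 2471 ± 577 CPM per kb (SD, n = 3), and at 48 h it was at 193 ± 71.3 CPM per kb, below Fabp1 (515 ± 312) and with Fads2 (218 ± 40.0) within its spread.

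Scd2 (chr19:44293674-44306864), the paralog best known from brain, had a log2 fold change of the opposite sign. It was at 2.86, 3.58 and 4.16 CPM at 0 h and at 16.3, 6.38 and 3.68 CPM at 48 h. The groups overlapped, and the high mean rested on 1 library. The log2 fold change was 1.31 (SE 0.443, adjusted p 0.0371, edgeR), and without 48 h replicate 1 it was 0.51 (adjusted p 0.177). The call was lost in 7 of 15 alternative analyses, among them DESeq2 (adjusted p 0.0891) and leaving out 0 h replicate 1, 2 or 3 (adjusted p 0.114, 0.095 and 0.0662). Of the 50-base stretches of Scd2 exons, 2.66% also occur in Scd1, and at 48 h Scd2 still made up only 0.750% ± 0.300 of the pair's counts per exon length, against 0.0263% ± 0.00142 at 0 h (SD, n = 3).

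Of the 3 front-end desaturases, the family that builds the long polyunsaturated chains, 2 fell, where 19.3% of all genes were lower. Fads3 (chr19:10041569-10060110), a desaturase of sphingoid bases, was at 37.5, 37.8 and 34.7 CPM at 0 h and 14.4, 20.3 and 17.8 CPM at 48 h. Its groups were well apart, with a log2 fold change of -1.07 (SE 0.132, adjusted p 0.000132, edgeR). Fads1 fell by 0.55 on the log2 scale (adjusted p 0.00877, edgeR). When counts were scaled by library size only, in place of TMM factors, it was at -0.34 and did not pass (adjusted p 0.0852). Fads2, its neighbour on chromosome 19 and the first enzyme of the route, had a log2 fold change of -0.09 (adjusted p 0.674), and its libraries overlapped.

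Of the 4 elongases, 2 fell (50%, against 19.3% of all genes). Elovl5 (chr9:77917364-77984519), which lengthens polyunsaturated chains, was at 464, 661 and 695 CPM at 0 h and at 251, 249 and 257 CPM at 48 h. The 48 h libraries were nearly equal to each other and all below 0 h, with a log2 fold change of -1.26 (SE 0.162, adjusted p 0.000168, edgeR). Elovl2, which acts on still longer polyunsaturated chains, fell by 0.60 on the log2 scale (adjusted p 0.00551, edgeR), which with library size only was -0.40 and did not pass (adjusted p 0.0533). Elovl6, which carries palmitate to stearate, and Elovl1, which makes very long saturated chains, had log2 fold changes of -0.08 and -0.13 and did not pass.

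All 3 regulators fell, where 19.3% of all genes were lower. Mlxipl (chr5:135089890-135138382), which encodes the glucose-responsive factor ChREBP, was at 979, 1048 and 962 CPM at 0 h and at 244, 410 and 383 CPM at 48 h. No library overlapped, and the log2 fold change was -1.53 (SE 0.192, adjusted p 0.000145, edgeR). Thrsp (chr7:97412938-97417730), a small nuclear protein tied to lipogenesis and thyroid hormone, was at 210, 101 and 226 CPM and then at 55.6, 41.1 and 30.9 CPM. The 0 h group was wide, yet its lowest library stood above all at 48 h, and the log2 fold change was -2.07 (SE 0.294, adjusted p 0.000319, edgeR). Srebf1 fell by 0.89 on the log2 scale (adjusted p 0.00086, edgeR). Gene counts do not separate its isoforms SREBP-1a and SREBP-1c, nor the starts of Mlxipl.

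Of the 8 tested genes of glycerolipid synthesis, 5 fell (62.5%, against 19.3% of all genes), and each step of the route had a member that did. Gpam, which adds the first acyl chain to glycerol-3-phosphate, fell by 0.96 on the log2 scale (adjusted p 0.00161, edgeR), and Agpat2, which adds the next, fell by 0.70 (adjusted p 0.00366). Lpin1 (chr12:16535669-16610966), a phosphatidate phosphatase that also acts as a transcriptional coactivator, was at 276, 277 and 190 CPM at 0 h and 119, 75.8 and 104 CPM at 48 h. Its groups did not overlap and the log2 fold change was -1.31 (SE 0.195, adjusted p 0.000419, edgeR). Lpin2, the other lipin expressed strongly in liver, fell by 0.83 on the log2 scale (adjusted p 0.000372, edgeR).

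Dgat2 (chr7:99153658-99182719), known for esterifying newly made fatty acids into triacylglycerol, was at 457, 440 and 478 CPM at 0 h and 192, 250 and 230 CPM at 48 h. The groups lay far apart relative to their spread, with a log2 fold change of -1.03 (SE 0.135, adjusted p 0.000184, edgeR). Dgat1, the unrelated enzyme known for re-esterifying exogenous fatty acids, had a log2 fold change of -0.21 (adjusted p 0.216), although its 3 libraries at 48 h lay just below those at 0 h. Agpat3 and Lpin3 had log2 fold changes of -0.21 and -0.04. Mogat1, a monoacylglycerol acyltransferase, was too low to test, with 6 to 9 counts at 0 h and 2 to 16 at 48 h.

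Among the droplet proteins, of 8 tested, 4 fell (50%, against 19.3% of all genes), 4 did not pass and 1 of the falls exceeded 2-fold. Plin2, the main droplet coat protein of hepatocytes and a usual marker of droplet load, was at 242, 179 and 210 CPM at 0 h and 178, 202 and 265 CPM at 48 h. The groups overlapped fully (log2 fold change 0.03, SE 0.169, adjusted p 0.899, edgeR), and the sign changed with the scaling method. Plin3 and Plin4 did not pass (-0.06 and -0.26). Plin5, which links droplets to mitochondria, fell by 0.37 (adjusted p 0.0171, edgeR), a call that was lost without 48 h replicate 1 (adjusted p 0.0707) and with library size only (-0.17, adjusted p 0.278).

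Fitm1 (chr14:55575617-55576954), of the family that partitions triacylglycerol into droplets at the endoplasmic reticulum, was at 20.0, 8.41 and 26.2 CPM at 0 h and 3.86, 6.96 and 8.25 CPM at 48 h. Its groups nearly touched, since 0 h replicate 2 and 48 h replicate 3 differed little, and the log2 fold change was -1.52 (SE 0.376, adjusted p 0.00879, edgeR). Of its exon bases, 11.2% overlap a gene on the other strand. Fitm2, its more widely expressed relative, fell by 0.59 (adjusted p 0.0133, edgeR), but did not pass without 48 h replicate 2 (adjusted p 0.0514) or with library size only (-0.39, adjusted p 0.09998). Cideb, which promotes droplet fusion and lipidation of very low density lipoprotein, fell by 0.70 (adjusted p 0.00684, edgeR). Its value is uncertain, because 76.3% of its exon bases overlap Nop9 on the other strand, whether reads were counted by strand is not given in the sources used here, and Nop9 rose (log2 fold change 0.70, adjusted p 0.00122). Cidec did not pass (-0.39), and Cidea, typical of brown fat, had at most 1 count in any library.

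Neither tested lipolysis gene passed in the main analysis. Pnpla2, the adipose triglyceride lipase, had a log2 fold change of 0.17 (adjusted p 0.267, edgeR), and with library size only it was 0.38 and passed (adjusted p 0.0274). Its inhibitor G0s2 was at 11.3, 9.54 and 10.4 CPM at 0 h and at 7.24, 17.4 and 24.9 CPM at 48 h, below the 0 h range in 1 library and above it in 2. Its log2 fold change was 0.67 (adjusted p 0.139), and it ranged from 0.25 without 48 h replicate 3 (adjusted p 0.54) to 1.02 without 48 h replicate 1 (adjusted p 0.00127). With no filter on low counts, G0s2 was at 0.65 and passed (adjusted p 0.00849, edgeR). Pnpla3, a lipase of the same family, held 4 to 8 counts at 0 h and 2 to 23 at 48 h and was not tested.

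Among the 4 uptake and binding genes, 1 rose (25%, against 21.4% of all genes) and none passed as lower. Fabp2, the binding protein typical of intestine, rose by 0.50 on the log2 scale (adjusted p 0.0311, edgeR), but this call was lost in 6 of 15 alternative analyses. Leaving out 0 h replicate 1 or 2 gave an adjusted p of 0.0559 or 0.0862, and leaving out 48 h replicate 2 or 3 gave 0.126 or 0.0616. Fabp1, the abundant fatty acid binding protein of the liver, was at 648, 435 and 525 CPM at 0 h and 125, 260 and 468 CPM at 48 h. Replicate 3 at 48 h stood inside the 0 h range while replicate 1 was the lowest of all, and the log2 fold change was -0.91 (adjusted p 0.0721, edgeR). It ranged from -0.56 without 48 h replicate 1 (adjusted p 0.104) to -1.47 without 48 h replicate 3 (adjusted p 0.00313). Fabp1 passed in 4 of the 15 alternative analyses. On all 6 libraries these were limma-voom (adjusted p 0.0427), and edgeR with the replicate block (0.0427) or with no filter on low counts (0.000193). The translocase Cd36 had a log2 fold change of 0.08 (adjusted p 0.831). Fabp4, typical of adipocytes, macrophages and capillary endothelium, was near 1 CPM, with a log2 fold change of 0.64 (adjusted p 0.0706), or 0.85 (adjusted p 0.023) with library size only. It stood beside adipocyte markers of which 5 of 6 were at or near 0 (Lipe was not), Kupffer cell markers of which 2 of 8 rose, and endothelial markers of which 7 of 8 fell.

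The libraries of a time point differed among themselves in a shared order in the palmitate genes. At 0 h, replicate 2 was the lowest and replicate 3 the highest in 5 of the 7 (all but Slc25a1 and Me1), and at 48 h replicate 1 was the highest and replicate 3 the lowest in 6 of 7. The exception at 48 h was Me1, lowest in replicate 1. Fabp1, G0s2 and Plin2 stood in the opposite order at 48 h, lowest in replicate 1 and highest in replicate 3. Over all 41 tested members, 48 h replicate 1 was the lowest library in 18 and the highest in 18, so it was at an extreme in 87.8% of members, against 69.5% of all genes. Replicate 3 of 0 h was the highest in 25 members (61.0%, against 31.6% of all genes) and replicate 2 the lowest in 23 (56.1%, against 40.1%). These are counts over genes that share the same 6 libraries, given as a description.

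**Figure D3:**
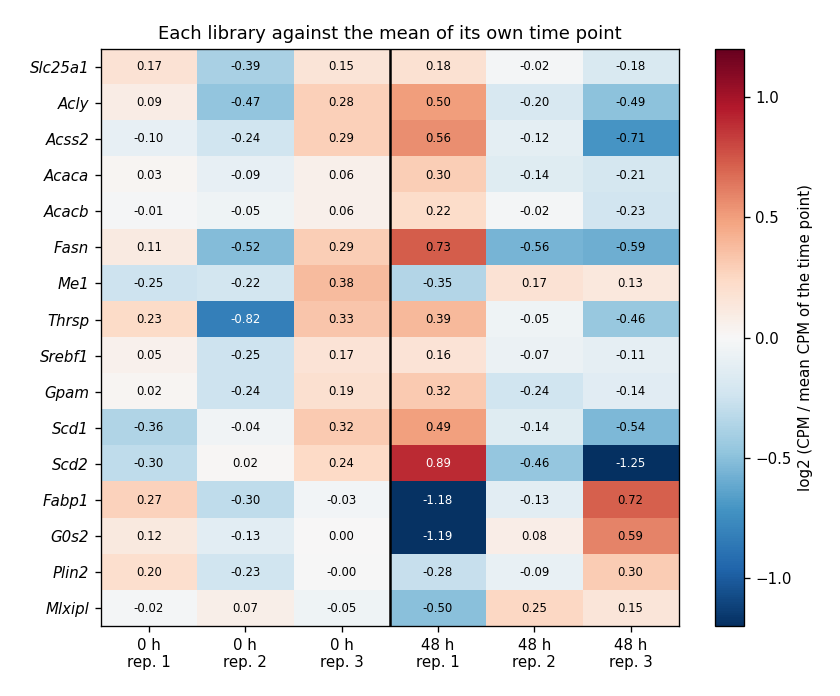
Log2 ratio of each library's CPM to the mean CPM of its own time point for 16 members chosen, with values known, to show the palmitate genes and those of like or opposite order; columns are the 6 libraries. At 48 h, Fasn and Scd2 are highest in replicate 1 (0.73 and 0.89), where Fabp1 and G0s2 are lowest (-1.18 and -1.19).

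Because paralogs changed by different amounts, the make-up of several families shifted. Shares were taken of the counts per kilobase of exon summed over the members of a family, as mean and SD of 3 libraries and with no test. Acaca made up 28.6% ± 0.589 of the carboxylase pair at 0 h and 54.8% ± 1.78 at 48 h, with no overlap between libraries. With the length of the longest transcript in place of all exons these shares were 39.6% and 66.5%, and since a length scales a gene alike at both times, the choice can change only the level of the share in a pair and not its direction. Among front-end desaturases, Fads2 went from 58.6% ± 0.290 to 66.1% ± 2.19 and Fads3 from 2.45% ± 0.229 to 1.41% ± 0.0541.

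Among the 4 member elongases, Elovl5 made up 41.9% ± 3.93 at 0 h and 30.0% ± 1.26 at 48 h, while Elovl1 went from 7.05% ± 1.46 to 10.9% ± 0.837. This lower share of Elovl5 depends on leaving out Elovl3, which is not a member. With Elovl3 counted in, an alternative chosen after the values were seen, Elovl5 was at 29.1% ± 4.0 and 29.4% ± 1.30, Elovl1 at 4.85% ± 0.897 and 10.7% ± 0.925, and Elovl3 itself at 30.9% ± 3.30 and 2.11% ± 2.21. Lpin3, a minor lipin, went from 2.67% ± 0.333 to 5.15% ± 0.451, and Dgat1 from 4.45% ± 0.246 to 7.71% ± 1.58 of the acyltransferases. With the length of the longest transcript, Lpin3 was at 1.45% and 2.78%. The make-up of the perilipins differed less, with Plin2 at 75.9% ± 1.49 and 79.0% ± 3.99. For the FIT proteins the libraries at 0 h disagreed, with Fitm1 at 66.8%, 39.8% and 70.9%.

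**Figure D4:**
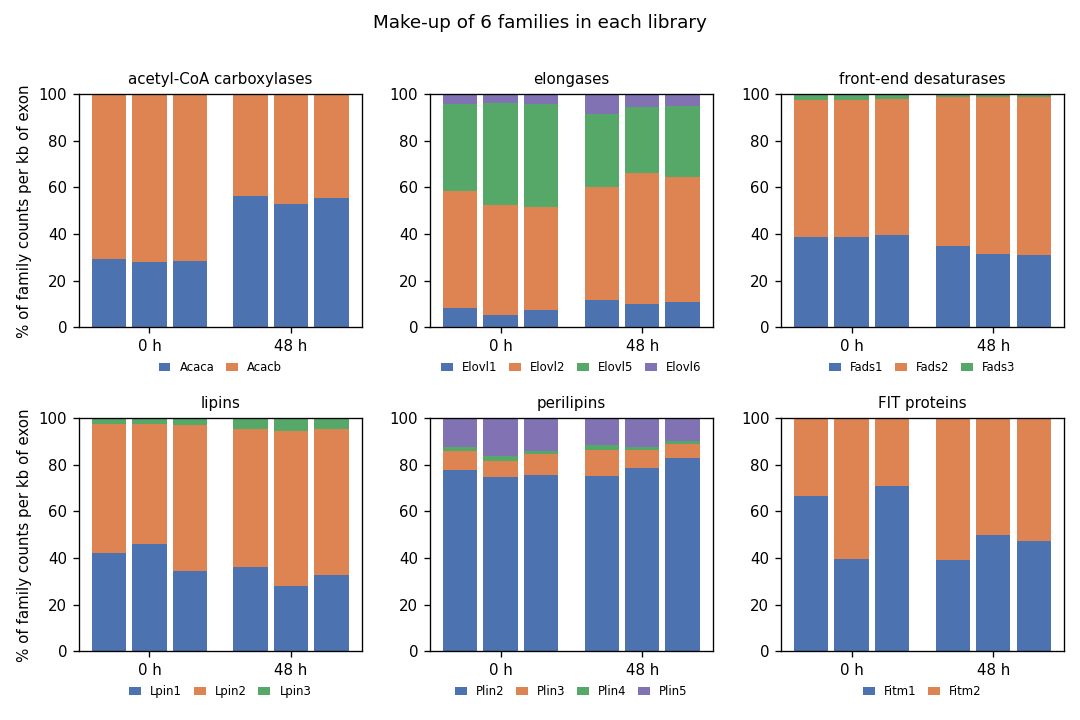
Share of each member in the counts per kilobase of exon summed over the members of its family (y axis, percent; Elovl3 is not a member) in the 3 libraries at 0 h (left bars) and the 3 at 48 h (right bars), for 6 families. Acaca passes from under 30% to over 50% of the carboxylase pair in every library, whereas Plin2 stays at 74.7% to 83.1% of the perilipins.

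Another 67 genes of the same pathways, not among the members, were read from the same fit. Of the 59 tested, 21 were lower (35.6%) and 4 were higher (6.78%), against 19.3% and 21.4% of all genes, and the median log2 fold change was -0.17. In chain synthesis and activation, 7 of 14 fell and 1 rose. Elovl3, an elongase of saturated and monounsaturated chains known for its daily rhythm in male liver, was at 367, 364 and 342 CPM at 0 h and 3.18, 4.78 and 23.1 CPM at 48 h. Its log2 fold change of -5.11 (SE 0.634, adjusted p 0.000136, edgeR) was larger in size than that of any member. Acsl1, which activates fatty acids to acyl-CoA, fell by 1.81 on the log2 scale (adjusted p 0.000114), and 9.91% of its exon bases overlap a gene on the other strand.

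Of 15 further regulators, 4 fell (26.7%, against 19.3% of all genes) and 1 rose. Insig1 and Insig2, which hold the SREBP escort protein in the endoplasmic reticulum, fell by 1.05 and 1.43 on the log2 scale (adjusted p 0.0142 and 3.58e-05, edgeR). Insig1 was at 477, 256 and 207 CPM at 48 h, highest in replicate 1 and lowest in replicate 3 like most palmitate genes. Other tested genes of these lists, regulators among them, stood in that order too, and its cause was not tested. In uptake and binding, 6 of 10 fell, led by the transporters and acyl-CoA synthetases Slc27a5 (-1.59), Slc27a1 (-1.37) and Slc27a2 (-1.14, with 11.2% of its exon bases overlapping a gene on the other strand). In droplets and lipolysis, 3 of 11 fell (27.3%), with Ces1d, a hydrolase that mobilizes triacylglycerol for secretion, at -2.46 and the droplet protein Hsd17b11 at -1.09. In glycerolipid synthesis, 1 of 9 fell (11.1%) and 2 rose (22.2%), near the shares of all genes, among them Gpat3, with a log2 fold change of 1.23 (adjusted p 0.00164, edgeR) at a level of 2.31 ± 0.572 CPM at 0 h and 5.43 ± 0.883 CPM at 48 h (SD, n = 3). Of its exon bases, 30.0% overlap a gene on the other strand, so its counts are uncertain.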

How the data were processed

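RNA of 6 hepatocyte preparations was sequenced, 3 at 0 h and 3 at 48 h after PHx, and libraries were grouped by their titles. The deposited values are raw read counts per gene, with no normalization. Per the labels, the authors used FastQC 0.11.5, Trim Galore 0.6.4, STAR 2.6, HTSeq 0.12.4 and DESeq2 on mm10; the role, order and strand setting are not given in the sources used here. Lines for uncounted reads were left out of library sizes: reads on no gene were 24.3% to 32.7% and ambiguous reads 4.27% to 5.29% of each file's total, and the line for reads aligned at several places holds 0. How such reads were treated is not given in the sources used here, which bears on paralogs such as Scd1 and Scd2.

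The test was glmQLFit and glmQLFTest of edgeR 4.0.16 (R 4.3.3) with TMM factors and no covariate beside time, on 17037 genes that reached 10 counts in 3 or more libraries. Members were called at a Benjamini-Hochberg adjusted p under 0.05 over all genes. The SE is the size of the log2 fold change divided by the square root of F. CPM are TMM-normalized, and levels per kb divide them by the union of GENCODE M21 exons. Full values are printed for members past the test that changed by 1 or more on the log2 scale and averaged 1 CPM or more, and for some others (Fasn, Plin2, G0s2 and Fabp1). Those others, the motif windows shown and the genes of the plot within time points were chosen after their values were seen. From the pathway lists, genes past the same criteria were named, at most 4 for each list. The fit was tested on simulated counts first.

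The members and all gene lists were chosen with earlier results of these data known. Alternatives were DESeq2 1.42.0, limma-voom (limma 3.58.1), other scalings and filters, the replicate number as a block, leaving out each library, and a fold threshold.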

Additional observations from a re-analysis of the deposited data

How the results depend on the processing

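Of the 22 called members, 16 kept direction and call under all 15 alternatives with a test of each gene, 6 (Scd2, Fabp2, Elovl2, Fads1, Plin5 and Fitm2) lost the call under at least 1, and 0 changed direction. Of the 19 that did not pass, 8 (Slc25a1, Acly, Acaca, Fasn, Pnpla2, G0s2, Fabp1 and Fabp4) passed under at least 1. The count of lower members was 10 at a fold threshold of 2 and 16 to 24 otherwise. The count of higher members was 2 in the main analysis, 4 with library size only, 1 with upper quartile scaling, DESeq2, limma-voom or the fold threshold, 0 with the replicate block (edgeR; 3 at an unadjusted p under 0.05), and 0 to 2 when a library was left out, with 0 at 0 h replicate 1 or 2 (1 and 2 unadjusted). Higher pathway genes numbered 8 with library size only and 2 at the fold threshold, and lower ones 9 at that threshold. Over all genes, the fold threshold gave 1651 higher and 1353 lower, and library size only gave 2110 lower. Scaling by library size only moved the median log2 fold change of all genes from -0.00325 to 0.199 and the share of higher among calls from 52.5% to 71.6%, since TMM factors were 0.914 to 0.950 at 0 h and 1.02 to 1.11 at 48 h. Under it Elovl2, Fads1, Plin5 and Fitm2 lost their calls. Relative to that shift, members near 0 changed sign. With library size only, Elovl1 was at 0.0769, Elovl6 at 0.11, Fads2 at 0.12, Lpin3 at 0.16 and Plin3 at 0.13. Plin2 was at -0.046 and Cd36 at -0.00198 with upper quartile scaling, and Plin2 at -0.0181 with factors from protein-coding genes. Leaving out 1 library gave -0.32 to 0.0575 for Elovl6, -0.19 to 0.0495 for Fads2, -0.13 to 0.0107 for Lpin3, -0.14 to 0.15 for Plin2, -0.26 to 0.0332 for Plin3 and -0.13 to 0.46 for Cd36. Replicate numbers are only names: deviations of same-numbered libraries correlated at 0.036, -0.0931 and -0.166. With the replicate block, Scd2 and Fabp2 had adjusted p of 0.0779 and 0.0593 (edgeR), and Fasn and Fabp1 passed (0.0145 and 0.0427). Of 58 family shares, 30 moved by over 1 SD with the longest transcript as length. The cause of these differences was not tested.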
